A study of Sus scrofa with 8 samples.

Results

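Genes of mitosis and DNA replication were followed in the right ventricular free wall of pigs after pulmonary artery banding. Of 42 genes chosen for these roles, 37 were found among the 31908 gene models of the count table by their gene name or, for MKI67, by a human name with a single pig counterpart. They comprise 11 of 12 S-phase genes and 26 of 30 mitotic genes. BUB1B and NUSAP1 were found only through a table of reference gene names, and AURKA and RRM2 only through a human name with several pig counterparts and their position, so these 4 are given apart. CCNA2, the cyclin of S phase and mitotic entry, had no model of its own and has no value here.

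A dividing cell first commits to S phase, in which E2F transcription factors raise the genes for origin licensing, the MCM helicase, the sliding clamp and nucleotide supply. Later, FOXM1 and related factors raise the genes for mitotic entry, chromosome condensation, the spindle and cytokinesis. Cardiomyocytes of mammals largely leave the cycle in the period after birth, often after replicating DNA without dividing, while fibroblasts, endothelial cells and macrophages of the heart can still divide. In bulk tissue, more cells in cycle and more of these RNAs in each cycling cell cannot be told apart, nor can the cell type that holds them. Cardiomyocytes are among these cell types, and whether those of these pigs were still in cycle was not tested.

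Bulk RNA sequencing was done on 8 Yorkshire Cross pigs, with 1 library per animal. In 4 castrated male piglets, operated on at 4.5 ± 0.6 weeks of age and 6.4 ± 1.3 kg, a band around the main pulmonary artery was tightened until the right ventricle reached a systolic peak of some 30 to 40 mmHg. The other 4 pigs, with treatment given as none and no sex stated, were of similar age and weight and were kept for 8 weeks. No sham operation is named, and the sources used here do not give the interval between banding and tissue collection. Batch, sex and surgery cannot be told apart from banding, because the labels give no batch and number the groups in separate blocks. Libraries held 31400659 to 34169120 counts in banded pigs and 31033679 to 34183338 in controls, where 3 counts correspond to 0.0878 to 0.0967 CPM (counts scaled to library size), a floor of counting error only. The 10 cardiomyocyte markers found, of 12 listed, summed to 39243 to 50788 CPM in banded pigs and 29714 to 40366 CPM in controls, most of it from MYL2, TNNT2 and TNNC1. MYL2, the ventricular myosin light chain, was at 18100, 14300, 20400 and 17000 CPM in banded pigs 1 to 4, against 9610, 8910, 7650 and 10900 CPM in controls 1 to 4, and rose by 0.91 ± 0.17 on the log2 scale (edgeR adjusted p = 0.0113). TNNI3, the cardiac troponin I gene, was at only 2.44 to 11.3 CPM in banded pigs and 12.6 to 20.6 CPM in controls. With edgeR 1 of these markers rose and 0 fell, 7 passed an unadjusted p under 0.05, 4 of them lower, and DESeq2 called 2 higher and 2 lower. Over all tested genes edgeR called 3.47% higher and 3.5% lower, and DESeq2 called 5.32% higher. The share of all genes that DESeq2 called lower was not taken. Of 4 tested atrial markers, which summed to 41.1 to 95.5 CPM in banded pigs and 35.4 to 70.4 CPM in controls, edgeR called 0, and 1 passed an unadjusted p under 0.05 and with DESeq2. It was SLN, sarcolipin, at 0.474, 1.39, 9.31 and 1.88 CPM in banded pigs 1 to 4, against 0.231 to 0.562 CPM in controls. PRC1, a bundler of spindle microtubules, had 0 to 3 counts per library and was not tested, which left 36 genes, 11 of S phase and 25 of mitosis.

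Some libraries stood apart in these genes. Banded 3 held the highest level of the 8 animals in 32 of the 36 genes. Banded 4 held the lowest banded level in 29 of them, and control 4 the highest control level in 24. Such counts were not taken over all genes. Banded 3 also had the lowest share of mitochondrial-genome counts (30.5%, against 35.9% to 39.7% in the other banded pigs and 35.3% to 43.9% in controls) and the highest level of CNN1, a smooth muscle calponin (1350 CPM, against 156 to 349 CPM in the other banded pigs and 61.7 to 116 CPM in controls). Without CNN1 the pericyte and smooth muscle markers summed to 1058 CPM in banded 3, against 702 to 929 CPM in the other banded pigs and 944 to 1257 CPM in controls. Banded 4 had the highest summed level of erythroid markers (1789 CPM, against 129 to 174 CPM in the other banded pigs and 74.8 to 322 CPM in controls). The part of these differences in the results was not tested.

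The authors' deposited table, which gives log2 fold changes of control over banded, had not been computed from all 8 libraries. A DESeq2 fit of the 7 libraries without banded 3 gave its log2 fold changes to within 0.01 for 100% of the 12959 genes with a base mean over 10, and its base means to within 0.216%. A fit of all 8 libraries did so for 6.47% of these genes, and leaving out any other single library for 4.41% to 6.81%. The sources used here give no reason. Of the 36 members with an adjusted p in the authors' deposited table, 11 passed 0.05, all higher in banded pigs, where 5.01% of all genes were called higher. They were MCM4, MCM5, MCM6, CCNB2, MKI67, TOP2A, TTK, CDC20, CENPF, DLGAP5 and KIF20A. The results below use all 8 libraries, and the counts, medians and called genes are also given without banded 3.

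In the right ventricle of banded pigs 9 of these 36 genes rose, and the other 27 did not pass the test. With edgeR's quasi-likelihood test, adjusted over 13697 genes, the 9 members that rose were 25% of those tested and 0 fell, where 3.47% of all genes were called higher and 3.5% lower. At an unadjusted p under 0.05, 30 members were higher and 0 lower. The share of all genes passing this unadjusted threshold was not taken, so counts at it, here and elsewhere, are descriptions only. DESeq2 called 21 members higher and 0 lower, where it called 5.32% of all genes higher. Limma-voom called 20 higher and 0 lower, where it called 4.94% of all genes higher. Here and elsewhere it was run with quality weights, which count the more variable libraries less. The log2 fold change of banded over control was above 0 in 35 of the 36 members, against 51.6% of all genes, with a median of 1.11, or 2.15-fold, against 0.02 over all genes. All 4 banded pigs lay above all 4 controls in 11 members, an order that 7.66% of all genes showed, and all banded pigs lay below all controls in 0 members, against 8.2% of all genes. The S-phase genes had a median log2 fold change of 0.97 (1.96-fold), and 2 of 11 rose. The mitotic genes had a median of 1.20 (2.29-fold), and 7 of 25 rose. Without banded 3 the medians were 0.76 for S phase and 0.92 for mitosis, and 0 S-phase and 3 mitotic genes were called, in a fit that called 3.31% of all genes higher. At an unadjusted p under 0.05 that fit held 5 S-phase and 14 mitotic genes.

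Leaving out banded 3 lowered the log2 fold change of all 9 genes called with 8 libraries, to a range of 0.72 to 1.35, against 0.90 to 1.63 with all 8. CDC20 at 1.17 (edgeR adjusted p = 0.0397) and DLGAP5 at 1.35 (0.0422) stayed under the threshold. The other 7 did not, with E2F1 at 0.77 (edgeR adjusted p = 0.0926), MCM6 at 0.72 (0.0619), CDK1 at 0.92 (0.0966), CCNB2 at 1.25 (0.0673), TTK at 1.19 (0.0930), CENPF at 1.10 (0.0626) and KIF20A at 1.16 (0.0637). Over all 36 genes the log2 fold change was lower without banded 3 in 35, and it was above 0 in 35.

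**Figure D1:**
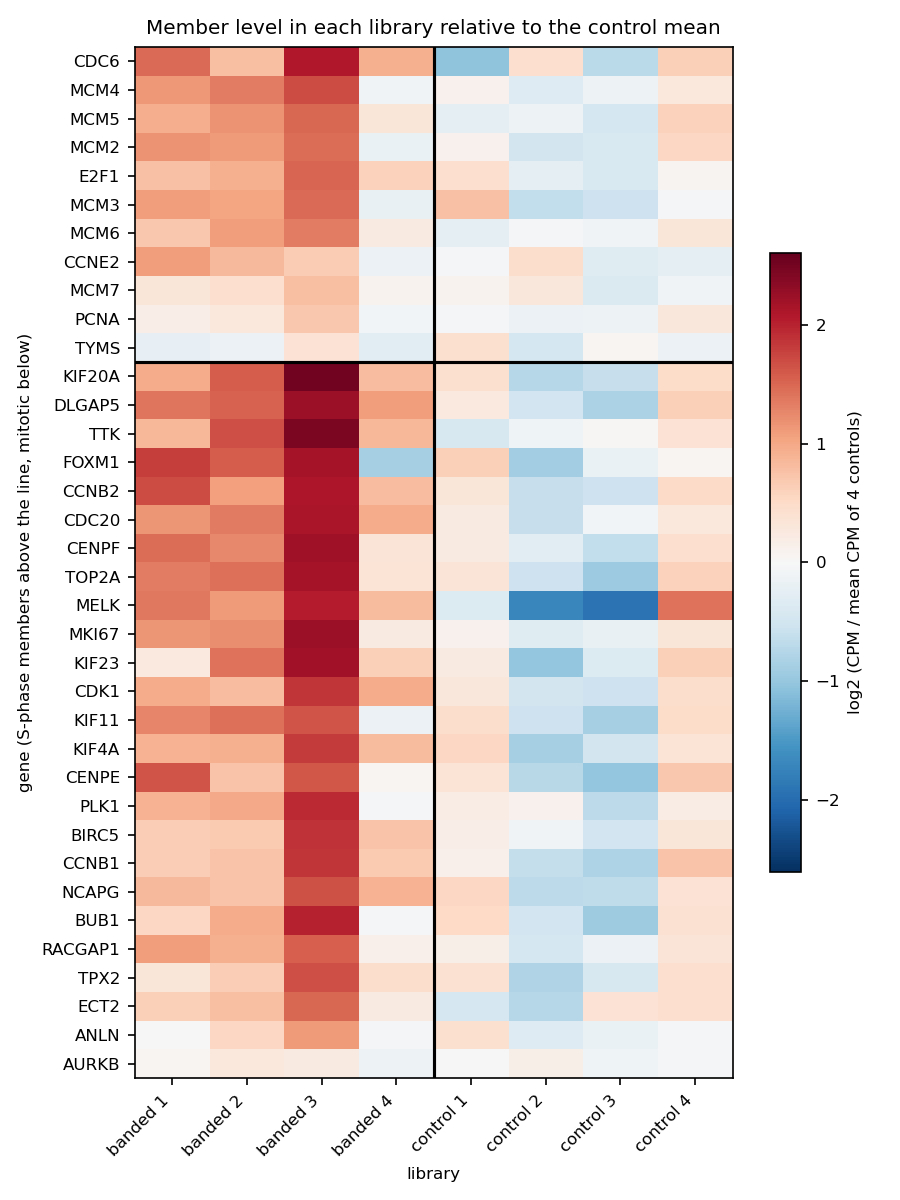
Level of each tested gene in each animal as log2 of its CPM over the mean CPM of the 4 controls, with banded animals in the left columns and controls in the right columns and S-phase genes above mitotic genes; red is above the control mean and blue below it. Banded 3 is the deepest red column, banded 4 the palest banded one, and control 4 is redder than controls 2 and 3.

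**Figure D2:**
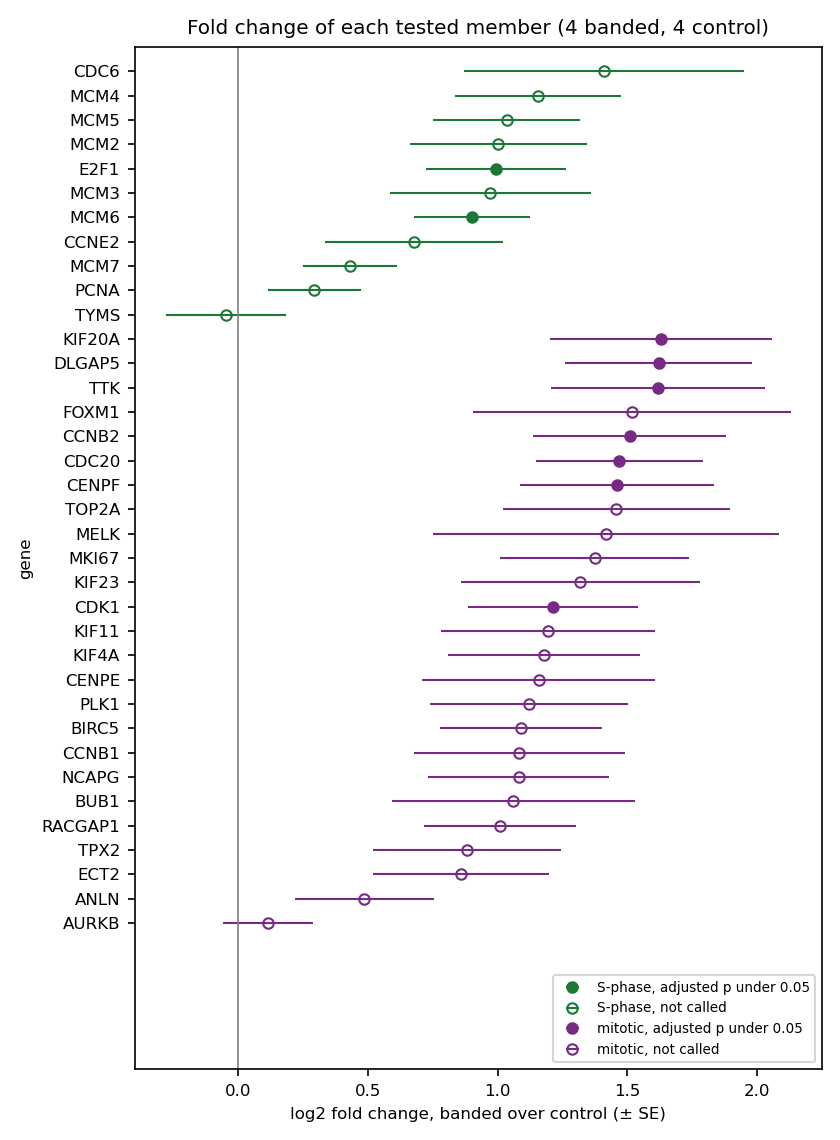
Log2 fold change of banded over control with its standard error for the 36 tested genes (n = 4 animals per group), S-phase genes in green and mitotic genes in purple, with filled points for an adjusted p under 0.05. All but TYMS lie to the right of 0, and the 9 filled points are spread over both phases.

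Among the genes that open S phase, E2F1, the transcription factor that drives the replication genes, rose. E2F1 (ENSSSCG00000007268, chromosome 17, 37178598 to 37189841, minus strand, build Sscrofa11.1) was at 5.37, 6.06, 9.15 and 4.80 CPM in banded pigs 1 to 4, against 4.31, 2.67, 2.42 and 3.34 CPM in controls 1 to 4. All banded values lay above all control values, with a log2 fold change of 0.995 ± 0.27 (SE) and an edgeR adjusted p of 0.0480. Leaving out 1 library at a time gave an adjusted p of 0.0383 to 0.142, under 0.05 only without banded 4. CCNE2, a cyclin E that activates CDK2 at the start of S phase, ranged over 1.36 to 3.22 CPM in banded pigs and 1.21 to 2.09 CPM in controls, groups that overlap, with a log2 fold change of 0.68 and an edgeR adjusted p of 0.254.

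The origin licensing genes, CDC6 and the subunits of the MCM helicase that unwinds DNA ahead of the fork, were all above 0 in log2 fold change, with a median of 1.00, and 1 of 7 rose. MCM6 (ENSSSCG00000035564, chromosome 15, 15917042 to 15985405, plus strand) was at 16.0, 21.2, 24.9 and 11.7 CPM in banded pigs 1 to 4, against 8.45, 9.60, 9.30 and 12.3 CPM in controls 1 to 4. Banded 1 to 3 lay above every control, and banded 4 lay below control 4. The log2 fold change was 0.90 ± 0.22 with an edgeR adjusted p of 0.0354, and with 1 library left out the adjusted p was 0.0109 to 0.113, under 0.05 only without banded 1, banded 4 or control 4. The counted model of MCM6 has 62.0% of its exonic bases outside the RefSeq gene.

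The same arrangement of animals recurred in MCM2, another helicase subunit. MCM2 was at 8.40, 8.08, 10.2 and 3.30 CPM in banded pigs 1 to 4, against 4.02, 2.70, 2.84 and 5.42 CPM in controls 1 to 4. Banded 1 to 3 were above all controls, and banded 4 was below controls 1 and 4. Its log2 fold change was 1.00 ± 0.34 with an edgeR adjusted p of 0.104. With 1 library left out that p was 0.0203 to 0.247, under 0.05 only without banded 4. MCM3, MCM4 and MCM5 had log2 fold changes of 0.97, 1.16 and 1.04 with edgeR adjusted p of 0.160, 0.0550 and 0.0516. Without banded 4 these adjusted p were 0.0495, 0.00415 and 0.0226, and that of MCM5 was 0.0249 without control 4. At the most, with 1 other library left out, they were 0.331, 0.153 and 0.150. The MCM5 model lies on a scaffold outside the chromosomes, where it could not be compared with a RefSeq gene.

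MCM7 was the most abundant member per length, at a mean of 13.1 TPM (transcripts scaled for length and library size) in banded pigs and 9.94 TPM in controls, while its fold change was the smallest of the MCM subunits. MCM7 was at 23.2, 25.3, 31.9 and 19.8 CPM in banded pigs 1 to 4, against 19.9, 22.7, 14.3 and 17.5 CPM in controls 1 to 4. The groups overlap through banded 4, and the log2 fold change was 0.43 ± 0.18 with an edgeR adjusted p of 0.174. CDC6, which loads the helicase, was low, at 0.626 to 1.55 CPM in banded pigs and 0.176 to 0.561 CPM in controls. Its groups do not overlap, and its log2 fold change of 1.41 ± 0.54 was the highest of the S-phase genes, with an edgeR adjusted p of 0.142.

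Of the genes of the sliding clamp and nucleotide supply, PCNA and TYMS had log2 fold changes nearer to 0, while RRM2 did not. PCNA, the clamp that holds polymerases on DNA, was at 18.6, 19.7, 26.6 and 15.6 CPM in banded pigs 1 to 4, against 16.0, 14.7, 14.9 and 20.0 CPM in controls 1 to 4. Control 4 was above every banded pig but banded 3, and the log2 fold change was 0.29 ± 0.18 with an edgeR adjusted p of 0.348. TYMS, thymidylate synthase, ranged over 5.35 to 8.44 CPM in banded pigs and 4.76 to 8.71 CPM in controls, ranges that nearly coincide, with a log2 fold change of -0.05 ± 0.23. TYMS was also the only gene of the 36 whose fold change was below 0, and over the alternative fits it lay between -0.22 and 0.12. The counted models of PCNA and TYMS have 83.2% and 53.5% of their exonic bases outside the RefSeq gene, and that of PCNA shares 22.5% of them with another model. Exons of the PCNA model also overlap the spans of CDS2 and TMEM230, and those of the TYMS model that of ENOSF1, strand not considered. What RNA of these genes adds to the counts was not tested. RRM2, the ribonucleotide reductase subunit matched outside the rule, ranged over 7.58 to 20.5 CPM in banded pigs and 3.10 to 9.51 CPM in controls. Its log2 fold change was 1.18 ± 0.43 with an edgeR adjusted p of 0.134, and DESeq2 gave 0.0246. The counted model of RRM2 has 65.8% of its exonic bases outside the RefSeq gene. Differences between genes in their fold changes were not tested.

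Of the genes that start mitosis, CDK1 and CCNB2 rose, while CCNB1 and FOXM1 did not pass the test. CDK1 (ENSSSCG00000010214, chromosome 14, 64233988 to 64395453, plus strand), the kinase of mitotic entry, was at 4.17, 3.70, 7.70 and 4.17 CPM in banded pigs 1 to 4, against 2.61, 1.54, 1.46 and 2.91 CPM in controls 1 to 4. All banded pigs were above all controls, and the log2 fold change was 1.21 ± 0.33 with an edgeR adjusted p of 0.0478. With 1 library left out the adjusted p of CDK1 was 0.0454 to 0.139, under 0.05 only without control 4. The counted model of CDK1 has 76.4% of its exonic bases outside the RefSeq gene, and its exons also overlap the spans of RHOBTB1, LOC100152879 and LOC110256801, strand not considered. CCNB2 (ENSSSCG00000004588, chromosome 1, 112907047 to 112942219, minus strand), a cyclin B that activates CDK1, was at 4.74, 3.07, 6.24 and 2.54 CPM in banded pigs 1 to 4, against 1.82, 0.957, 1.01 and 2.05 CPM in controls 1 to 4. These groups do not overlap either, with a log2 fold change of 1.51 ± 0.37 and an edgeR adjusted p of 0.0337. With 1 library left out the adjusted p of CCNB2 was 0.0233 to 0.105, under 0.05 only without banded 2, banded 4 or control 4.

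CCNB1, the other cyclin B of the list, was at 2.97, 3.19, 6.96 and 3.09 CPM in banded pigs 1 to 4, against 2.11, 1.25, 1.10 and 3.20 CPM in controls 1 to 4. Control 4 was above 3 of the banded pigs, and the log2 fold change was 1.08 ± 0.41 with an edgeR adjusted p of 0.134. FOXM1, the transcription factor of the mitotic genes, was near the low end of what was measured, at 1.33, 1.14, 1.70 and 0.209 CPM in banded pigs 1 to 4, against 0.587, 0.203, 0.337 and 0.396 CPM in controls 1 to 4. Banded 1 to 3 were above all controls and banded 4 was below controls 1, 3 and 4. The log2 fold change was 1.52 ± 0.61 with an edgeR adjusted p of 0.160. With 1 library left out that p was 0.0471 to 0.333, under 0.05 only without banded 4. The FOXM1 model shares 47.9% of its exonic bases with another model.

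MKI67 and TOP2A, the proliferation markers with the highest counts among the mitotic genes, were higher in banded pigs 1 to 3 but missed the threshold. MKI67, which encodes the Ki-67 antigen coating mitotic chromosomes (ENSSSCG00000026302, chromosome 14, 137266634 to 137295666, minus strand), was at 19.8, 20.8, 41.8 and 10.6 CPM in banded pigs 1 to 4, against 9.71, 7.19, 7.84 and 11.2 CPM in controls 1 to 4. Banded 3 was far above the other animals, and banded 4 lay between controls 1 and 4. The log2 fold change was 1.37 ± 0.36 with an edgeR adjusted p of 0.0538. It was 0.0432 without banded 3, 0.01 without banded 4 and 0.00476 without both, DESeq2 gave 0.000894 with all 8 libraries, and edgeR gave 0.0749 to 0.152 without any other single library.

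TOP2A, the topoisomerase that untangles chromosomes, repeated this order of animals. TOP2A (ENSSSCG00000017473, chromosome 12, 22001336 to 22028454, plus strand) was at 19.4, 20.6, 34.6 and 9.80 CPM in banded pigs 1 to 4, against 9.74, 5.31, 3.99 and 11.7 CPM in controls 1 to 4. Banded 4 was close to control 1 and below control 4, and the log2 fold change was 1.46 ± 0.44 with an edgeR adjusted p of 0.0854. With 1 library left out that p was 0.0350 to 0.203, under 0.05 only without banded 4. NCAPG, a condensin subunit, ranged over 3.50 to 6.55 CPM in banded pigs and 1.31 to 3.02 CPM in controls, without overlap, with a log2 fold change of 1.08 and an edgeR adjusted p of 0.0871. The counted model of NCAPG has 26.5% of its exonic bases outside the RefSeq gene, and its exons also overlap the spans of DCAF16 and LCORL, strand not considered.

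None of the 4 mitotic kinase and passenger complex genes passed the edgeR test, and 2 of them did at an unadjusted p under 0.05 and with DESeq2. BIRC5, or survivin, a subunit of the chromosomal passenger complex, was the most abundant mitotic member per length at a mean of 7.14 TPM in banded pigs and 3.35 TPM in controls. BIRC5 was at 5.53, 5.72, 13.0 and 5.94 CPM in banded pigs 1 to 4, against 3.99, 3.31, 2.50 and 4.39 CPM in controls 1 to 4. All banded pigs were above all controls, with a log2 fold change of 1.09 ± 0.31 and an edgeR adjusted p of 0.0590. AURKB, the kinase of the same complex, hardly differed, at 5.49 to 7.25 CPM in banded pigs and 5.56 to 6.70 CPM in controls, with a log2 fold change of 0.11 and an edgeR adjusted p of 0.739. PLK1, a kinase of centrosomes and kinetochores, and MELK, a kinase that is high in dividing cells, had log2 fold changes of 1.12 and 1.42 with edgeR adjusted p of 0.102 and 0.225. With 1 library left out that of PLK1 was 0.0314 to 0.240, under 0.05 only without banded 4. That of MELK was 0.0279 to 0.413, under 0.05 only without control 4. The counted model of PLK1 has 53.5% of its exonic bases outside the RefSeq gene, and its exons also overlap the span of ERN2, strand not considered. For MELK and AURKB the share outside the RefSeq gene is 49.1% and 26.3%. AURKA, the spindle pole kinase matched outside the rule, ranged over 2.75 to 5.47 CPM in banded pigs and 1.57 to 2.85 CPM in controls.

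Of the 3 spindle checkpoint and anaphase genes matched by the rule, CDC20 and TTK rose, while BUB1 did not pass the test. CDC20 (ENSSSCG00000003949, chromosome 6, 167886270 to 167890583, minus strand) activates the ubiquitin ligase that starts anaphase and is the target of the checkpoint. CDC20 was at 3.63, 4.15, 7.08 and 3.16 CPM in banded pigs 1 to 4, against 1.91, 1.07, 1.55 and 1.98 CPM in controls 1 to 4. The lowest banded pig was above the highest control, and the log2 fold change was 1.47 ± 0.32 with an edgeR adjusted p of 0.0213, the smallest of the 36 genes. The CDC20 call held without any single banded library and without control 4, at an adjusted p of 0.0173 at the least, and was lost without control 1, 2 or 3, at 0.053, 0.0693 and 0.0699. TTK (ENSSSCG00000004466, chromosome 1, 86076583 to 86125718, minus strand), the kinase that starts checkpoint signalling at kinetochores, was at 1.71, 2.99, 5.13 and 1.70 CPM in banded pigs 1 to 4, against 0.704, 0.870, 0.955 and 1.22 CPM in controls 1 to 4. These groups also do not overlap, with a log2 fold change of 1.62 ± 0.41 and an edgeR adjusted p of 0.0382, which with 1 library left out was 0.0269 to 0.115 and under 0.05 only without banded 1 or banded 4. BUB1, another checkpoint kinase, had a log2 fold change of 1.06 with an edgeR adjusted p of 0.196. BUB1B, the checkpoint inhibitor of CDC20 matched outside the rule, was at 2.81, 4.21, 7.42 and 2.99 CPM in banded pigs 1 to 4, against 2.08, 0.957, 0.815 and 1.88 CPM in controls 1 to 4. BUB1B rose 3.04-fold with an edgeR adjusted p of 0.0387, which with 1 library left out was 0.0358 to 0.118 and under 0.05 only without banded 1 or banded 4.

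Of the 6 kinetochore, spindle and motor genes, DLGAP5 and CENPF rose. DLGAP5 (ENSSSCG00000005056, chromosome 1, 184499914 to 184550020, minus strand), which stabilises microtubules near the chromosomes, was at 4.39, 4.89, 7.79 and 3.55 CPM in banded pigs 1 to 4, against 1.99, 1.19, 0.955 and 2.58 CPM in controls 1 to 4. All banded pigs were above all controls, and the log2 fold change was 1.62 ± 0.36 with an edgeR adjusted p of 0.0228. As with CDC20, the DLGAP5 call held without any single banded library or control 4 and was lost without control 1, 2 or 3, at 0.0561, 0.0776 and 0.0696. CENPF (ENSSSCG00000015581, chromosome 9, 128948497 to 129012218, minus strand), a large kinetochore protein, was at 9.76, 8.45, 16.3 and 4.48 CPM in banded pigs 1 to 4, against 4.20, 2.90, 2.28 and 4.82 CPM in controls 1 to 4. Banded 4 was below control 4, and the log2 fold change was 1.46 ± 0.37 with an edgeR adjusted p of 0.0416, which with 1 library left out was 0.0112 to 0.126 and under 0.05 only without banded 4.

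TPX2, a spindle assembly factor and the most abundant per length of the genes of this role matched by the rule, was at 7.74, 9.61, 19.8 and 8.45 CPM in banded pigs 1 to 4, against 8.10, 3.60, 4.66 and 8.39 CPM in controls 1 to 4. Controls 1 and 4 were level with 2 of the banded pigs, and the log2 fold change was 0.88 ± 0.36 with an edgeR adjusted p of 0.170. The kinesin motors KIF11, which pushes spindle poles apart, KIF4A, which acts on chromosome arms, and CENPE, which carries chromosomes to the spindle equator, had log2 fold changes of 1.20, 1.18 and 1.16. Their edgeR adjusted p were 0.108, 0.0812 and 0.149. With 1 library left out that of KIF11 was 0.0280 to 0.250, under 0.05 only without banded 4. NUSAP1, a spindle-associated protein matched outside the rule, ranged over 10.0 to 18.5 CPM in banded pigs and 7.25 to 9.02 CPM in controls. Its edgeR adjusted p was 0.0576, and with 1 library left out 0.0421 to 0.160, under 0.05 only without banded 1.

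At the end of mitosis, 1 of 5 tested cytokinesis genes rose. KIF20A (ENSSSCG00000014326, chromosome 2, 140202015 to 140211157, plus strand), a kinesin of the central spindle, was at 5.94, 9.01, 17.3 and 5.28 CPM in banded pigs 1 to 4, against 4.05, 1.83, 2.02 and 4.26 CPM in controls 1 to 4. The groups do not overlap, and the log2 fold change of 1.63 ± 0.43 was the highest of the 36 genes, with an edgeR adjusted p of 0.0480. With 1 library left out the adjusted p of KIF20A was 0.0323 to 0.139, under 0.05 only without banded 1 or banded 4. KIF23 and RACGAP1, partners in the complex that bundles the central spindle, had log2 fold changes of 1.32 and 1.01 with edgeR adjusted p of 0.114 and 0.0618. With 1 library left out that of RACGAP1 was 0.0173 to 0.167, under 0.05 only without banded 4. ECT2, which activates RhoA at the furrow, and ANLN, the furrow scaffold anillin, had log2 fold changes of 0.86 and 0.49 with edgeR adjusted p of 0.153 and 0.300. The counted model of ECT2 has 51.9% of its exonic bases outside the RefSeq gene.

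**Figure D3:**
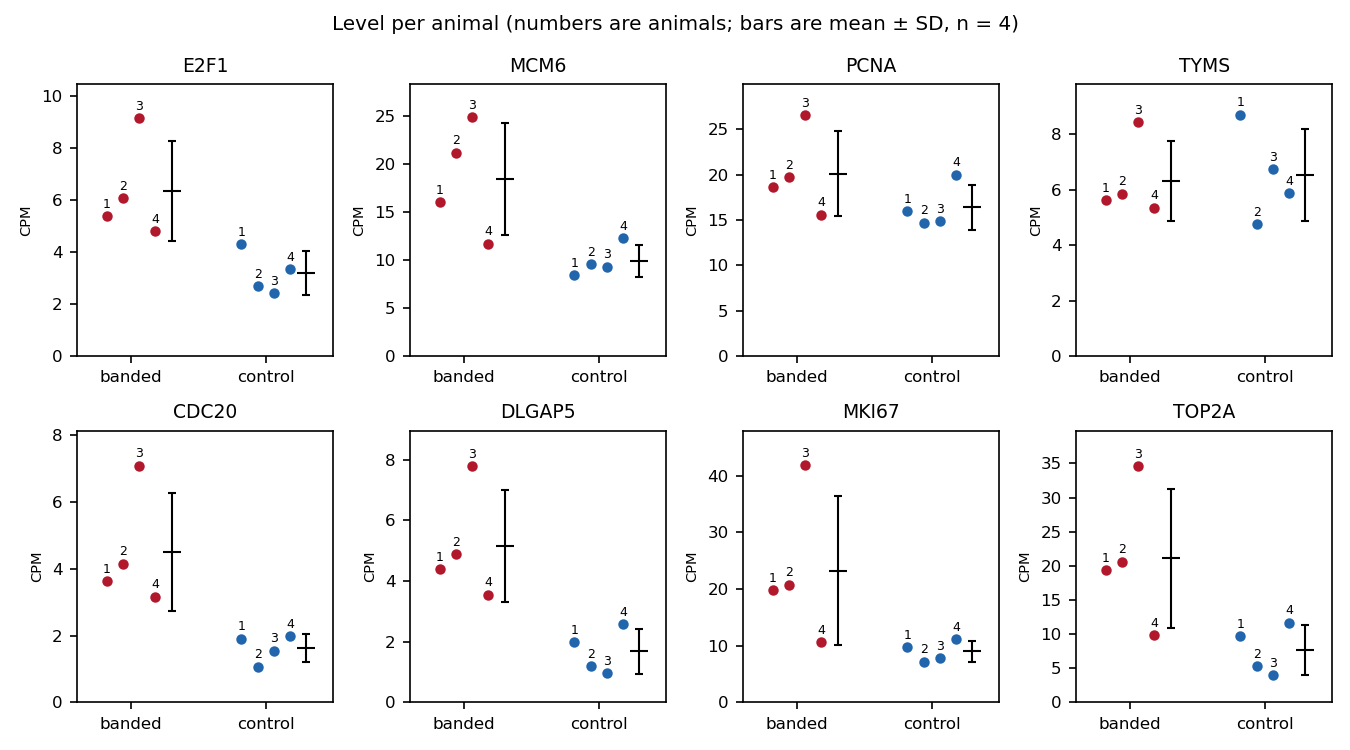
CPM of 8 of the genes in each animal, 1 panel per gene with its own axis from 0, banded animals at the left and controls at the right, each point labelled with its animal number and bars at the group mean ± SD (n = 4). The spread in the banded group comes mostly from animal 3 at the top and animal 4 at the bottom, and in TYMS and PCNA the groups lie side by side.

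Banded 1 to 3 stood further from the controls than banded 4. Relative to the control mean, the median S-phase gene was at 1.92, 1.90, 2.72 and 0.952-fold in banded pigs 1 to 4, and at 1.07, 0.897, 0.768 and 1.21-fold in controls 1 to 4. The median mitotic gene was at 1.95, 1.99, 3.86 and 1.37-fold in banded pigs 1 to 4, and at 1.19, 0.685, 0.693 and 1.36-fold in controls 1 to 4. Banded 4 thus had S-phase genes at the control level and mitotic genes at the level of control 4. Banded 1, 2, 3 and 4 exceeded every control in 28, 32, 35 and 12 of the 36 genes. In 29 genes at least 3 banded pigs exceeded every control, and in 17 of them banded 4 was the only banded pig that did not. Of the 25 genes with a fitted fold of at least 2, 4 were among the 11 tested S-phase genes and 21 among the 25 tested mitotic genes. The counts of this paragraph were not taken over all genes, so they describe the members only.

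The balance of the phases overlapped between groups. The mean log2 CPM of mitotic genes minus that of S-phase genes was -0.69, -0.62, -0.23 and -0.54 in banded pigs 1 to 4, against -0.68, -1.26, -1.05 and -0.63 in controls 1 to 4. Banded 3 was the least negative and controls 2 and 3 the most negative, while the other 5 animals lay within -0.69 and -0.54. Both phase scores were higher in banded pigs on average, the S-phase score by 0.76 and the mitotic score by 1.15. Summed over the tested genes, S-phase RNA took 77.9 to 159 CPM in banded pigs and 63.7 to 84.8 CPM in controls, and mitotic RNA took 104 to 286 CPM in banded pigs and 59.4 to 104 CPM in controls. These scores are descriptions over chosen genes and were given no test.

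**Figure D4:**
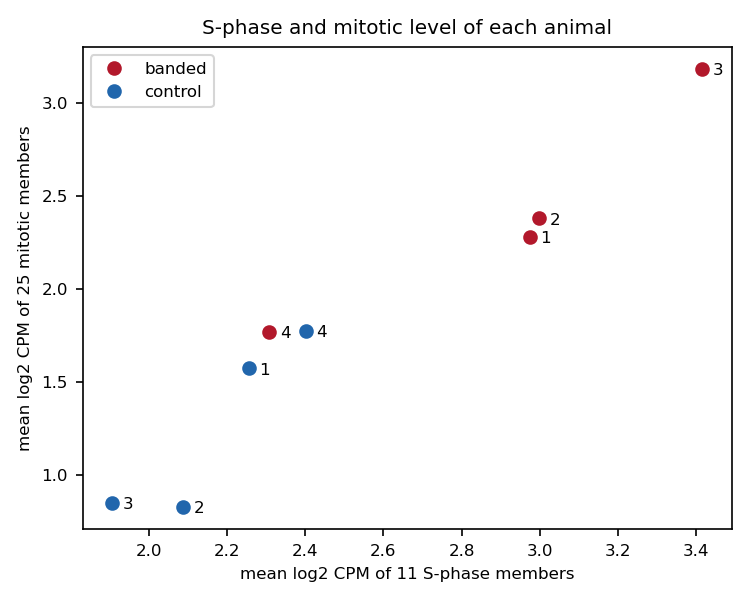
Mean log2 CPM of mitotic genes against that of S-phase genes in each of the 8 animals, banded and control animals marked by colour and numbered. Animals with more S-phase RNA tend to have more mitotic RNA, from controls 2 and 3 at the lower left to banded 3 at the upper right, with banded 4 beside control 4.

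The number of members called followed single libraries. It was 5, 3, 3 and 18 without banded 1, 2, 3 or 4, and 0, 0, 0 and 7 without control 1, 2, 3 or 4. Of these fits, the share of all genes called higher was taken only without banded 3 (3.31%) and without banded 4 (3.57%). The other counts are descriptions only. At an unadjusted p under 0.05, edgeR still held 29, 24 and 22 members without control 1, 2 or 3. The count over all genes, higher and lower together, also fell in these fits, but not to 0 as that of the members did. It was 399, 415 and 409, against 954 with all libraries, or 6.97% of genes tested. The 18 members without banded 4 were 6 of S phase and 12 of mitosis, in a fit that called 3.57% of all genes higher. Without banded 3 and 4 together 9 members were called, 4 of S phase and 5 of mitosis, where 3.0% of all genes were called higher, and 4 of these 9 were among the 9 called with all libraries.

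**Figure D5:**
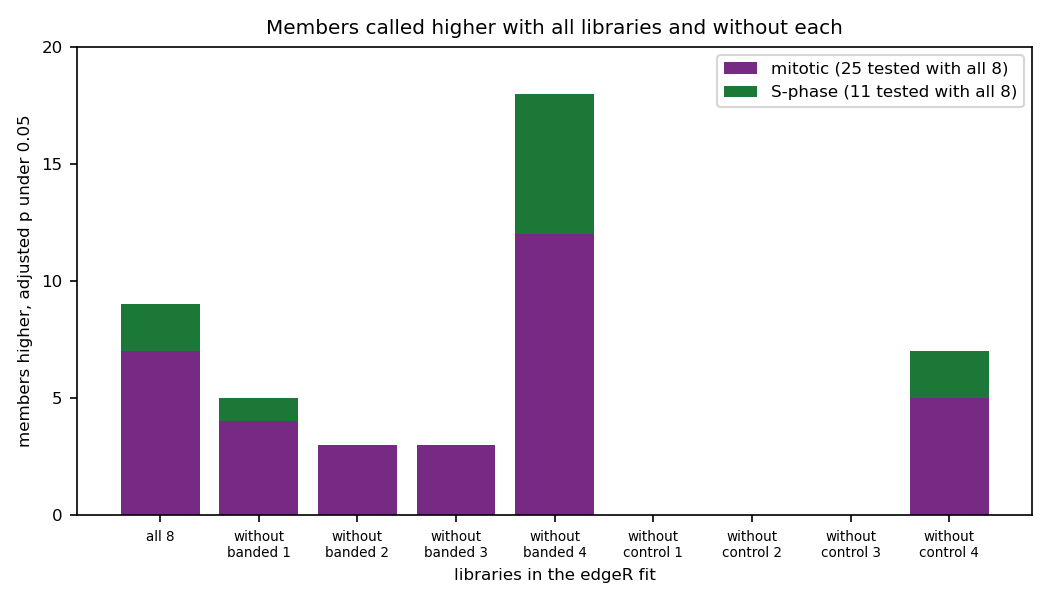
Number of members called higher in banded pigs (edgeR adjusted p under 0.05) with all 8 libraries and with each library left out, split into S-phase and mitotic genes. The count is 18 without banded 4 and 0 without control 1, 2 or 3.

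Other replication and mitotic genes outside the 42 were taken from lists likewise chosen with earlier results known. Over all genes, edgeR called 3.47% higher and 3.5% lower, and DESeq2 called 5.32% higher. Of 61 other replication genes tested, 6 rose (9.84%) and 0 fell with edgeR, and the log2 fold change was above 0 in 45 and below 0 in 16. DESeq2 called 9 higher and 0 lower, 19 passed an unadjusted p under 0.05, of which 0 were lower, and the median log2 fold change was 0.26. E2F7, an E2F target that represses E2F genes, was at 2.91, 2.59, 2.78 and 1.29 CPM in banded pigs 1 to 4, against 0.704, 0.696, 0.731 and 0.429 CPM in controls 1 to 4. These groups do not overlap, and E2F7 rose by 1.89 ± 0.38 on the log2 scale with an edgeR adjusted p of 0.0141, which stayed at 0.00686 to 0.0440 with 1 library left out. UHRF1, which guides maintenance of DNA methylation behind the fork, was at 6.60, 6.77, 9.06 and 3.09 CPM in banded pigs 1 to 4, against 1.64, 2.47, 1.35 and 2.84 CPM in controls 1 to 4. Its log2 fold change was 1.62 ± 0.35 with an edgeR adjusted p of 0.0195, lost without control 1 (0.0663) or control 3 (0.0655). MCM10, a replication initiation factor, and CHAF1A, a histone chaperone of the fork, rose by 1.92 ± 0.41 and 1.15 ± 0.24 with edgeR adjusted p of 0.0205 and 0.0195. Leaving out control 1, 2 or 3 gave 0.0602, 0.0678 and 0.0604 for MCM10 and 0.0602, 0.0591 and 0.0673 for CHAF1A, and leaving out banded 1 gave 0.0519 for MCM10. ORC1 and TK1 were the other called genes of this list. Without banded 3 this list held 5 called genes, without banded 4 it held 8, and without control 1, 2 or 3 it held 2, 2 and 1. Over all genes 3.31% were called higher without banded 3 and 3.57% without banded 4. The shares called higher without control 1, 2 or 3 were not taken.

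Of 74 other mitotic genes tested, 5 rose (6.76%) and 0 fell with edgeR, 69 had a log2 fold change above 0 and 5 below 0, and the median was 0.91. At an unadjusted p under 0.05 there were 39, of which 2 were lower, and DESeq2 called 23 higher and 1 lower. CDCA5, or sororin, which protects cohesion between sister chromatids, was at 3.47, 2.53, 4.05 and 2.12 CPM in banded pigs 1 to 4, against 1.11, 0.667, 0.702 and 1.16 CPM in controls 1 to 4. The groups do not overlap, and CDCA5 rose by 1.74 ± 0.34 on the log2 scale with an edgeR adjusted p of 0.0133, which stayed at 0.0114 to 0.0488 with 1 library left out. TACC3, a spindle microtubule protein, and PIMREG, a mitotic regulator, had log2 fold changes of 1.47 ± 0.31 and 2.50 ± 0.55 with edgeR adjusted p of 0.0195 and 0.0223. Without control 1, 2 or 3 the adjusted p was 0.0629, 0.0693 and 0.0535 for TACC3 and 0.0623, 0.0610 and 0.0649 for PIMREG. PKMYT1, the inhibitory kinase of CDK1, had a log2 fold change of 2.24 ± 0.59 from levels of 0.521 to 0.947 CPM in banded pigs and 0.0562 to 0.231 CPM in controls. Its edgeR adjusted p of 0.0428 was 0.0508 to 0.128 with any 1 library left out. CKAP2L was the other called gene. Without control 1, 2 or 3 this list held 1 called gene in each fit, without banded 4 it held 16, and without banded 3 it held 3 higher and 1 lower. The shares of all genes called higher were 3.57% without banded 4 and 3.31% without banded 3, and were not taken without control 1, 2 or 3.

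Among 27 tested inhibitors, D cyclins and pocket proteins, 1 gene rose (3.7%) and 1 fell. These counts are near the shares over all genes, of which 3.47% were called higher and 3.5% lower. CDKN1A, the CDK inhibitor p21, was at 87.0, 79.4, 121 and 105 CPM in banded pigs 1 to 4, against 61.1, 34.0, 49.7 and 57.7 CPM in controls 1 to 4. Every banded pig was above every control, banded 4 included, with a log2 fold change of 0.95 ± 0.20 and an edgeR adjusted p of 0.0158, and 0.0564 without control 3. CDK6, a partner of D cyclins, was at 2.43, 2.62, 3.12 and 1.91 CPM in banded pigs 1 to 4, against 6.19, 4.52, 6.04 and 4.23 CPM in controls 1 to 4. CDK6 was lower in every banded pig and fell by 1.06 on the log2 scale, with a standard error of 0.24 and an edgeR adjusted p of 0.0245. Without banded 1, control 1, control 2 or control 3 the adjusted p of CDK6 was 0.0519, 0.0816, 0.0526 and 0.0863.

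Besides the cardiomyocyte markers given above, markers of other cell types that could hold the cycling cells differed between groups in part. Over all genes, edgeR called 3.47% higher and 3.5% lower, DESeq2 called 5.32% higher and limma-voom called 4.94% higher. The shares that DESeq2 and limma-voom called lower were not taken. Of 12 macrophage and monocyte markers, 11 had a log2 fold change above 0, with a median of 0.60, and 1 rose, CD14 (log2 fold change 1.08 ± 0.28, edgeR adjusted p = 0.0430, and 0.0152 to 0.126 with 1 library left out, under 0.05 only without banded 4 or control 4). At an unadjusted p under 0.05 there were 9 macrophage markers, of which 0 were lower, DESeq2 called 5 higher, C1QA, C1QB, C1QC, CD14 and CD163, and limma-voom called 4 higher. The summed macrophage level was 1024, 1419, 946 and 756 CPM in banded pigs 1 to 4, against 513, 776, 662 and 785 CPM in controls 1 to 4. Banded 4, the banded pig with the lowest levels of the cycle genes, was also the lowest banded pig here, but banded 3 was not the highest. This place of banded 4 was not particular to macrophages. It was also the lowest banded pig in the summed fibroblast, endothelial, pericyte and smooth muscle, T and NK cell, and neutrophil and mast cell markers. It was not the lowest in the cardiomyocyte, atrial, B and plasma cell, erythroid, Schwann cell or adipocyte sums. Banded 3 was the highest banded pig in the cardiomyocyte, atrial, endothelial, and pericyte and smooth muscle sums only. Of 11 fibroblast markers 2 rose and 1 fell, with a summed level of 5564 to 8578 CPM in banded pigs and 6334 to 8654 CPM in controls. PI16, a marker of resting adventitial fibroblasts, rose by 2.13 ± 0.21 on the log2 scale (edgeR adjusted p = 0.000315, and 0.000182 to 0.00232 with 1 library left out). FBLN1, a matrix protein gene of fibroblasts, had a log2 fold change of 0.69 ± 0.16 and an edgeR adjusted p of 0.0248, which was 0.0527 to 0.0866 without any 1 control. The fibroblast marker that fell was PDGFRA, a growth factor receptor of fibroblasts, at 40.1, 47.7, 45.3 and 35.7 CPM in banded pigs 1 to 4, against 57.7, 69.0, 55.4 and 55.3 CPM in controls 1 to 4. Every banded pig was below every control, with a log2 fold change of -0.49 ± 0.13 and an edgeR adjusted p of 0.0480. That p was 0.0478 to 0.151 with 1 library left out, under 0.05 only without banded 2 or banded 3. GSN and MFAP5 were also below all controls in every banded pig but did not pass, with log2 fold changes of -0.75 and -0.42 and edgeR adjusted p of 0.0716 and 0.159. PDGFRA, GSN, MFAP5, TNNI3, SLN and CNN1 were chosen for naming after their values were seen. Of 12 endothelial markers 0 rose and 1 fell with edgeR, with a summed level of 1122 to 1236 CPM in banded pigs and 1174 to 1326 CPM in controls. DESeq2 called 0 endothelial markers higher and 2 lower, and at an unadjusted p under 0.05 there were 2, both lower. The endothelial gene that fell with edgeR was EMCN, a surface sialomucin (log2 fold change -0.57 ± 0.12, edgeR adjusted p = 0.0207, and 0.0507, 0.0561, 0.0648 and 0.0747 without banded 1, control 1, control 2 or control 3). Of 10 pericyte and smooth muscle markers 0 were called by edgeR, 5 passed an unadjusted p under 0.05, 4 of them lower, and DESeq2 called 1 higher and 3 lower. The T and NK cell markers summed to 17.0 to 30.8 CPM in banded pigs and 21.0 to 25.7 CPM in controls. Of the T cell receptor subunits, CD3D was at 1.70 to 3.16 CPM in banded pigs and 2.36 to 3.20 CPM in controls, and CD3E at 1.6 to 3.77 CPM in banded pigs and 2.64 to 3.17 CPM in controls, while the CD3G model held 0 counts in all 8 libraries. B and plasma cell markers summed to 5.49 to 8.42 CPM in banded pigs and 5.72 to 10.8 CPM in controls. The models of MPO and ELANE, markers of neutrophil precursors, also held 0 counts in all 8. The part of these cell types in the levels of the cycle genes was not tested.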

How the data were processed

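Total RNA of 8 right ventricles, 1 library per animal, was analysed from the authors' files. The authors' tool for counting read pairs was featureCounts 1.6.2, per the file headers, set to mapping quality 10 or more and strand setting 2, with Ensembl release 106 of Sscrofa11.1. The deposited counts are not normalised, and no count column lacked a sample. The submitters' processing notes also name HISAT2, Trimmomatic, DESeq2 and Subread, without versions. The authors' deposited table holds a base mean as normalised signal, a log2 fold change with its standard error, a Wald score, and p-values with adjusted p-values. Gene model lengths in bases came with the deposited counts and served only for TPM.

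Genes passing filterByExpr (minimum count 10, minimum total 15) of edgeR 4.0.16 in R 4.3.3 were scaled by TMM. Groups, taken from the labels, were compared with the robust quasi-likelihood F test, two-sided, with Benjamini-Hochberg adjustment over 13697 genes and a threshold of 0.05. Standard errors are the log2 fold change over the square root of F. CPM is TMM-normalised. Scores used a prior count of 2. TPM divides by the length of the gene model, includes mitochondrial genes, and is approximate where a model reaches beyond its RefSeq gene. The test was checked on simulated counts. With 4 animals per group, p-values set the difference between groups against the spread between these animals only. The test moderates the spread of each gene with that of the other tested genes.

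The genes and lists were chosen with earlier results of these data known. Values per animal are given for members that were called, for the most abundant member of each role, and for MKI67, TOP2A, CDK1, CCNB1, PCNA, MCM2, E2F1 and FOXM1. Of the other cell-cycle lists, the called genes with the 4 smallest adjusted p per direction and CDKN1A are named; values of BUB1B and the names of the remaining called genes were added after their values were seen. Alternatives were DESeq2 1.42.0, limma-voom (limma 3.58.1), other scalings and filters, and leaving out libraries or members.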

Additional observations from a re-analysis of the deposited data

Results flagged for a closer look

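Of 78 groups of 4 animals tested, 72 were of the members' levels and 6 of the phase scores and their difference. In 8 of them, all of members, 1 animal stood apart from the others by a gap wider than the 95% critical value of Dixon's test. Chance alone flags about 1 in 20 groups, and genes of 1 library are not independent. In 7 of the 8 the animal was banded 3, above the other 3 banded pigs. Banded 3 had 8.44 CPM of TYMS against 5.35 to 5.86 CPM in the other banded pigs. It had 7.7 CPM of CDK1 against 3.7 to 4.17 CPM, and 6.96 CPM of CCNB1 against 2.97 to 3.19 CPM. It had 6.55 CPM of NCAPG against 3.5 to 3.89 CPM, and 13 CPM of BIRC5 against 5.53 to 5.94 CPM. It had 5.75 CPM of KIF4A against 2.92 to 3.13 CPM, and 19.8 CPM of TPX2 against 7.74 to 9.61 CPM. The remaining case was PLK1 in control 3, at 1.63 CPM against 2.84 to 3.02 CPM in the other controls. Of the 9 members that rose, CDK1 was the only one among these 8 genes.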

How the results depend on the processing

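Over all alternatives, 35 of 36 members kept a log2 fold change above 0, with TYMS as the exception, and 0 were called lower. DESeq2 called 21 members (5 S-phase, 16 mitotic) and 1629 genes in all, and limma-voom called 20 members (5 and 15). Library size alone, which shifted the all-gene median by -0.10 (log2) and the share of calls that were higher to 37.4% (49.8% with TMM), called 5 members (0 of S phase). S-phase calls were 1 without robust estimation, 1 without members at the border of the phases, 1 without the 6 members whose model lies mostly outside the RefSeq gene, and 4 without banded 3 and 4 together. With the 4 genes matched outside the rule 10 of 40 were called. Leaving out 1 library gave 0 to 18 members, 0 to 6 of S phase, 0 to 12 of mitosis, and 399 to 962 genes in all, with medians of 0.76 to 1.11 (S phase) and 0.92 to 1.45 (mitosis). Removal of banded 3 and 4 together, of long models and the addition of 4 genes were chosen after seeing the data. Differences between tools and libraries have causes that were not tested. Banded and control libraries came from different animals and the labels give no pairing, so the test was unpaired. The labels give no replicate numbers either, and animals are numbered here in sample order within each group. Promoter motifs were not analysed here. Member counts of 6 to 1352 per library limit the low genes, such as CDC6 and FOXM1, most.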
